A study of Mus musculus with 9 samples.

Results

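The proteasome subunit genes of mouse lung macrophages are described here in air and after inhaled ozone. They were taken as the protein-coding genes whose GENCODE M21 symbol begins with Psma, Psmb, Psmc, Psmd, Psme or Psmg, which gave 49 genes of 54281 in the table, 21805 of them protein-coding. The proteasome is the barrel-shaped protease that degrades ubiquitin-tagged proteins. Its 20S core is built of alpha rings, which gate the entry, and beta rings, which hold the active sites, and it is capped by a 19S regulator that binds ubiquitin, unfolds the substrate and feeds it in. In immune cells and under interferon, the catalytic beta subunits Psmb5, Psmb6 and Psmb7 can be replaced by Psmb8, Psmb9 and Psmb10 to form the immunoproteasome, which favours peptides that MHC class I molecules can present. Macrophages of the air spaces use the proteasome both for general protein turnover and for antigen processing.

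Total RNA was sequenced from the lung macrophages of 9 mice, all wild-type females of 12 weeks whose strain the sources do not name, in 3 groups of 3. The groups were controls that breathed air, mice sampled 24 h after breathing 0.8 ppm ozone for 3 h, and mice sampled 72 h after it. Ozone is an oxidant gas that injures the airway and alveolar lining. The cells were obtained by lavage of the airspaces with massage of the lung and were not sorted, so each library is the bulk RNA of whatever cells the lavage held.

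The libraries held 47095543 to 60248305 estimated counts, and levels are given as CPM, counts scaled to a common library size by TMM. The 20 alveolar macrophage markers were all detected, at summed levels of 40560 to 43190 CPM in air, 27380 to 37750 CPM at 24 h and 31430 to 37420 CPM at 72 h. A pair of ozone libraries stood apart. Replicate 2 at 24 h and replicate 1 at 72 h held 850 and 88.2 CPM of 12 summed T cell markers, against 4.43 to 15.9 CPM in the other 7 libraries. Their 10 serous cavity macrophage markers summed to 642 and 843 CPM, against 6.18 to 10.8 CPM in the other 7, where Selp, 1 of these markers, was at or near 0. Their 13 B cell markers summed to 1922 and 1175 CPM, against 158 to 201 CPM elsewhere, nearly all of it from Cd22. Red cell markers also summed higher in both, to 2942 and 2547 CPM, and replicate 1 at 24 h held 874 CPM of them, with 22.8 to 154 CPM elsewhere. Neutrophil markers summed to 193 and 167 CPM, against 62.3 to 86.3 CPM, and lung epithelial markers to 237 to 325 CPM over all 9. Air replicate 2, labelled female, had 2.42 CPM of Xist, against 887 to 1482 CPM in the other 8 libraries. Results are therefore given with all 9 libraries and, where they differ, without the 2 libraries that carried lymphocyte and serous cavity markers.

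Proteasome subunit transcripts were lower at 72 h after ozone than at 24 h, in almost every part of the particle. Of the 49 genes, 48 had enough counts to be tested, and 39 of them were lower at 72 h than at 24 h while 1, Psme2b, was higher (edgeR quasi-likelihood test, adjusted p under 0.05, referred to as called). Among all 15713 genes tested, 12.8% were called lower and 5.39% higher in this comparison. The median log2 change of the 48 genes was -0.33, beside -0.03 over all genes tested. For 42 of the 48, all 3 libraries at 72 h lay below all 3 at 24 h, which held for 22.7% of all genes tested. The log2 change was below 0 in 46 of the 48, beside 53.1% of all genes. The members together took 0.366% to 0.396% of all counts in air, 0.384% to 0.420% at 24 h and 0.319% to 0.342% at 72 h.

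**Figure D1:**
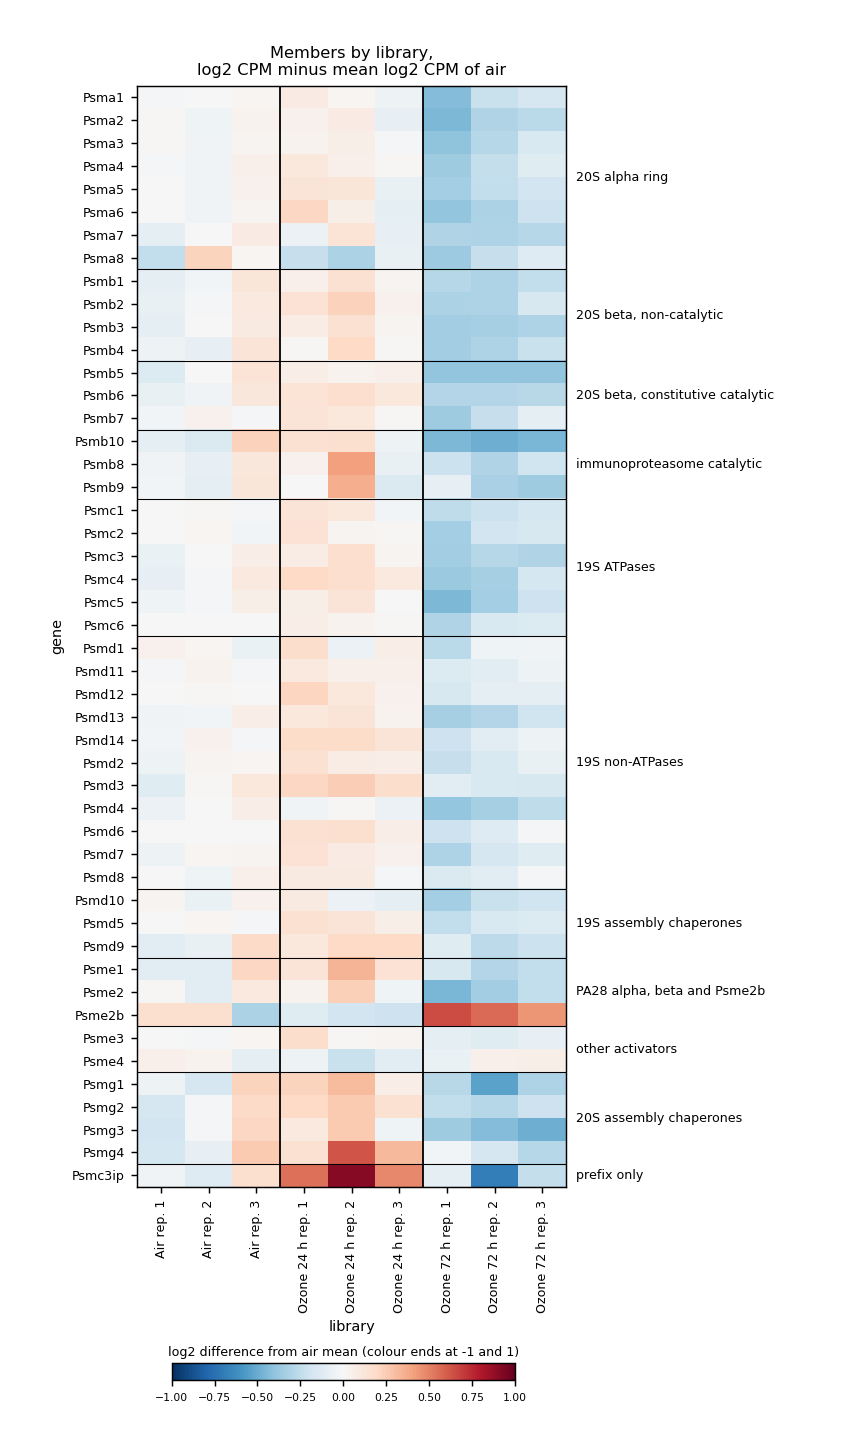
Log2 CPM of the 48 tested genes (rows, by role) in the 9 libraries (columns) minus the mean log2 CPM of the 3 air libraries. Most rows turn blue in all 3 libraries at 72 h, whereas Psme2b turns red, and Psmb8 and Psmb9 are darkest in replicate 2 at 24 h.

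Against air, none of the 48 genes was called at 24 h by edgeR, where 0.00636% of all genes tested were called in either direction, and 4 had an unadjusted p under 0.05, beside 14.7% of all genes. DESeq2 called 1, Psmc3ip, and limma voom called 0. The log2 change was above 0 in 42 of the 48 genes, beside 52.4% of all genes, with a median of 0.08 beside 0.01. The 3 libraries at 24 h lay above all 3 in air for 10 genes, beside 10.4% of all genes tested, and below for 0, beside 9.06%. At 72 h against air, 13 genes were called lower and 0 higher, where 3.77% of all genes were called lower and 1.71% higher, 5.47% together. The log2 change was below 0 in 46 genes, beside 51% of all, and its median was -0.25 beside -0.01. The 3 libraries at 72 h lay below all 3 in air for 39 genes, beside 22.1% of all genes. The 13 were Psma2, Psma3, Psma7, Psmb1, Psmb3, Psmb5, Psmb6, Psmb10, Psmc3, Psmc4, Psmc5, Psmd4 and Psmd13. All 3 comparisons share libraries, so their values are not independent of each other. In 42 of the 48 genes the group means ranked highest at 24 h, next in air and lowest at 72 h.

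The medians were steadier than the calls. Without the 2 libraries that carried markers of other cells, 20 genes were called lower and 1 higher at 72 h against 24 h, with a median of -0.23, and 8 were called lower at 72 h against air, with a median of -0.22. These 8 were Psmb9 and 7 of the 13, while Psma3, Psmb1, Psmb10, Psmc4, Psmc5 and Psmd13 were not called. Of the 15713 genes tested with all libraries, this fit called 1339 lower and 1033 higher at 72 h against 24 h. Against air it called 419 lower and 694 higher. With all libraries the counts were 2008 and 847 against 24 h, and 592 and 268 against air. In a joint test over the 3 groups 34 members differed, beside 13.2% of all genes, and 10 without the 2 libraries that stood apart. With 1 library left out at a time, 4 genes were called at 72 h against 24 h without replicate 2 at 72 h and 16 without replicate 1 at 24 h, and 28 to 37 without any other. Against air, 72 h had 4 calls without air replicate 1 and 17 without replicate 2 at 24 h, and 0 without any of the other 7 libraries. Calls over all genes are not given here for the fits with 1 library left out. The median log2 change stayed between -0.28 and -0.36 against 24 h and between -0.22 and -0.31 against air in these fits. Replicate 1 at 72 h held the lowest value of the 9 libraries for 31 of the 48 genes. The summed alveolar macrophage markers were lower in the ozone groups than in air. Chil3 made up most of this sum, with means of 23710 CPM in air, 18450 CPM at 24 h and 19800 CPM at 72 h. At 72 h Car4 (432 CPM in air, 607 CPM at 72 h), Itgax and Slc7a2 had higher means than in air, and the others of the list lower ones. The 10 dendritic cell markers, none of them at 0, summed to 51.7 to 65.9 CPM in air, 54.4 to 111 CPM at 24 h and 111 to 121 CPM at 72 h. Of these, only Batf3 had a lower mean at 72 h (5.60 CPM) than in air (8.48 CPM), and Ccr7 averaged 13.1 CPM in air and 32.8 CPM at 72 h. The part of these cell types in the change was not tested, and in bulk RNA fewer cells of a type and less RNA per cell cannot be told apart.

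**Figure D2:**
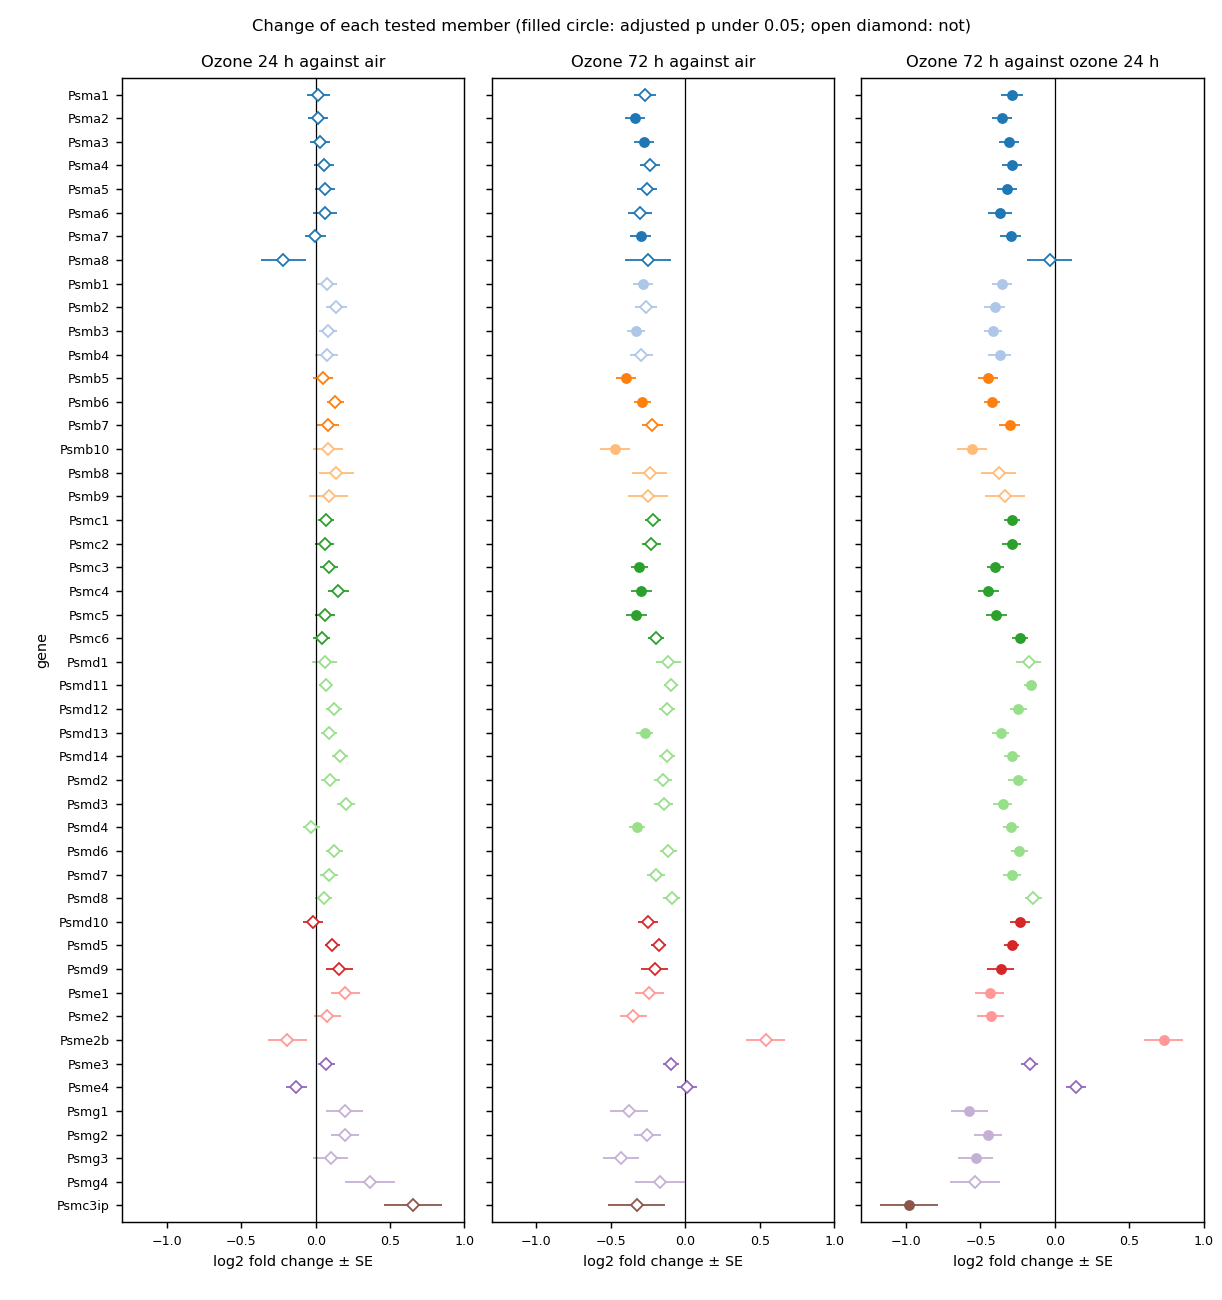
Log2 fold change ± SE (x axis) of each tested gene (y axis, coloured by role) in the 3 comparisons, with filled circles for adjusted p under 0.05. Most points lie right of 0 at 24 h against air, furthest for Psmc3ip at 0.65 and Psmg4 at 0.37. In both other panels the points lie left of 0, apart from Psme2b and Psme4.

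The constitutive 20S core fell as a block at 72 h relative to 24 h. All 14 of its genes were called lower, with log2 changes of -0.29 to -0.45 and a median of -0.36. Its summed level was 1403 ± 54.6 CPM in air, 1461 ± 61.2 CPM at 24 h and 1149 ± 60.4 CPM at 72 h (SD, n = 3 each). Without the 2 libraries that stood apart 6 of the 14 were called, with a median of -0.25. Of these 14 genes, 7 were called lower at 72 h against air.

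The alpha ring genes Psma1 to Psma7 had log2 changes of -0.29 to -0.37 at 72 h against 24 h, all called, and -0.24 to -0.34 against air, where Psma2, Psma3 and Psma7 were called. Psma2 was at 106, 102 and 108 CPM in air, with 109, 112 and 99.5 CPM at 24 h and 77.3, 85.8 and 87.5 CPM at 72 h. The 72 h libraries lay below the other 6 without overlap. Psma8, the alpha subunit known from testis, stood apart from the ring at 72 h against 24 h, with a log2 change of -0.03 ± 0.15 (edgeR, adjusted p = 0.911). It was at 3.66 to 5.075 CPM in air, 3.48 to 4.11 CPM at 24 h and 3.36 to 3.98 CPM at 72 h. Its change at 72 h against air was -0.25 ± 0.15 (edgeR, adjusted p = 0.325), within the range of the ring but not called.

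The non-catalytic beta genes Psmb1 to Psmb4, which complete the beta ring without an active site, were all called lower at 72 h against 24 h, by -0.36 to -0.42 on the log2 scale. Psmb3 was at 76.5, 82.4 and 87.5 CPM in air, with 86.4, 90.9 and 83.6 CPM at 24 h and 64.4, 65.0 and 66.2 CPM at 72 h. Its log2 change was -0.42 ± 0.06 at 72 h against 24 h (edgeR, adjusted p = 0.00669) and -0.33 ± 0.06 against air (adjusted p = 0.0285). Psmb2 was at 69.9, 72.8 and 78.9 CPM in air, with 81.6, 86.4 and 76.2 CPM at 24 h and 59.1, 59.4 and 65.95 CPM at 72 h. For both genes every library at 72 h was below every library of the other groups. The Psmb2 change of -0.40 ± 0.07 against 24 h was called (edgeR, adjusted p = 0.00995), and was not called without replicate 2 at 72 h (adjusted p = 0.0602).

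The 3 active-site genes of the constitutive core all fell at 72 h relative to 24 h. Psmb5, the chymotrypsin-like subunit, was at 75.2, 83.0 and 91.0 CPM in air, with 86.8, 85.0 and 85.8 CPM at 24 h and 62.9, 63.0 and 63.0 CPM at 72 h. Psmb6, the caspase-like subunit, was at 71.3, 73.5 and 81.5 CPM in air, with 82.7, 84.4 and 81.0 CPM at 24 h and 61.6, 61.4 and 62.2 CPM at 72 h. In both genes the mice at 72 h lay close together and below all other mice. Psmb5 fell by 26.7% at 72 h against 24 h, a log2 change of -0.45 ± 0.07 (edgeR, adjusted p = 0.00695), and fell by 24.2% against air (adjusted p = 0.0239). Psmb6 fell by 25.4% against 24 h, a log2 change of -0.42 ± 0.06 (edgeR, adjusted p = 0.00595), and fell by 18.2% against air (adjusted p = 0.0319). Psmb3, Psmb5, Psmb6 and Psmc3 were the named genes called at 72 h against 24 h whichever library was left out. Psmb7, the trypsin-like subunit, was at 87.1, 91.6 and 88.01 CPM in air, with 97.1, 95.7 and 89.7 CPM at 24 h and 69.6, 75.8 and 83.5 CPM at 72 h. Its spread at 72 h was wider than that of the other pair, and its change of -0.30 ± 0.07 against 24 h (edgeR, adjusted p = 0.0225) was called in 3 of 9 fits with 1 library left out, and not without the 2 libraries that stood apart (adjusted p = 0.0807).

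The immunoproteasome genes also had lower means at 72 h than at 24 h, but only Psmb10 was called. Psmb8, which takes the place of Psmb5, was at 88.5, 85.7 and 97.8 CPM in air, with 93.3, 120 and 86.1 CPM at 24 h and 78.1, 73.4 and 79.0 CPM at 72 h. The high value of 120 CPM was that of replicate 2 at 24 h, the library with T and B cell markers. The 72 h libraries lay below both other groups, yet the log2 change of -0.38 ± 0.12 against 24 h was not called (edgeR, adjusted p = 0.055). DESeq2 called it (adjusted p = 0.0198), and edgeR did so without replicate 3 at 24 h (adjusted p = 0.0426). It was -0.21 without the 2 libraries that stood apart (edgeR, adjusted p = 0.104).

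Psmb9, which takes the place of Psmb6, was at 35.9, 34.4 and 39.8 CPM in air, with 36.6, 47.2 and 33.2 CPM at 24 h and 34.7, 29.3 and 28.7 CPM at 72 h. Its highest value was again in replicate 2 at 24 h and its highest at 72 h in replicate 1, the pair of libraries that stood apart. The log2 change was -0.34 ± 0.13 against 24 h (edgeR, adjusted p = 0.116) and -0.25 ± 0.13 against air (adjusted p = 0.275). Without these 2 libraries the change against air was -0.32 and called (edgeR, adjusted p = 0.0482). The part of lymphocyte RNA in the Psmb8 and Psmb9 values was not tested. Psmb10, which takes the place of Psmb7, was at 72.2, 69.8 and 90.4 CPM in air, with 85.7, 85.9 and 74.4 CPM at 24 h and 56.4, 54.9 and 56.0 CPM at 72 h. The 72 h mice lay together below all others. It fell by 32% against 24 h, a log2 change of -0.56 ± 0.10 (edgeR, adjusted p = 0.0103), and fell by 28% against air, a change of -0.47 ± 0.10 (adjusted p = 0.0378). The first of these was not called without replicate 2 at 72 h (adjusted p = 0.0607). The second was not called without the 2 libraries that stood apart (edgeR, adjusted p = 0.0535) and was called in 1 of 9 fits with 1 library left out.

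**Figure D3:**
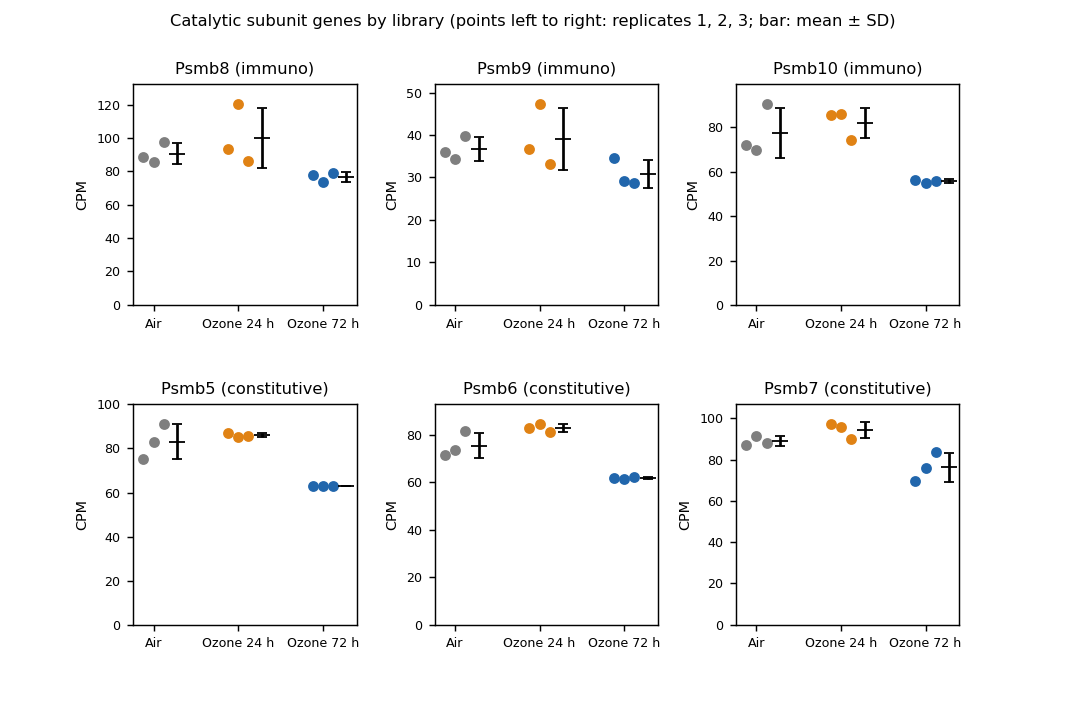
CPM (y axis, from 0) of the 6 catalytic subunit genes by group (x axis), with 1 point per mouse and bars for mean ± SD, n = 3. Psmb5, Psmb6 and Psmb10 form tight clusters at 72 h near 63, 62 and 56 CPM, below every other mouse, while Psmb8 and Psmb9 each show 1 high mouse at 24 h.

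The promoters of these genes are shown because the immuno and constitutive subunits are known to answer to different factors, interferon-driven IRF proteins among them for the immuno genes and the CNC family factors NRF1 and NRF2 for the constitutive ones. The windows run from 250 bases before to 50 bases after the RefSeq start on GRCm38.p6. Psmb8 lies at chr17:34197945-34198244 on the plus strand, Psmb9 at chr17:34187281-34187580 on the minus strand, Psmb10 at chr8:105938343-105938642 on the minus strand, Psmb5 at chr14:54617946-54618245 on the minus strand and Psmb6 at chr11:70525107-70525406 on the plus strand. Capitals mark TTCNNNGAA in Psmb8, a GAS pattern, the reverse complement of CCAAT in Psmb9, and TGACNNNGC in Psmb5 and Psmb6, an antioxidant response element pattern. Psmb10 held none of the patterns searched.
Psmb8: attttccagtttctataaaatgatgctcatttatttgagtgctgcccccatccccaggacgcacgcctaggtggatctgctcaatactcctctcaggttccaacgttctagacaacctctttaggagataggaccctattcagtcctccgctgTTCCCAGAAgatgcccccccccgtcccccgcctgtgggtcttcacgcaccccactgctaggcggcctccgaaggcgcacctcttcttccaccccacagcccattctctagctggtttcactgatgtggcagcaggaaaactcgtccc
Psmb9: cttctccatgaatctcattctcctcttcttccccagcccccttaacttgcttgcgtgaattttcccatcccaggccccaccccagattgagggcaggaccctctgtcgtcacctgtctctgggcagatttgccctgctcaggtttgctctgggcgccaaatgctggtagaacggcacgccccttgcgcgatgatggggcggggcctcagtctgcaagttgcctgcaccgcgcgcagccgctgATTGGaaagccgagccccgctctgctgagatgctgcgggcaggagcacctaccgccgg
Psmb10: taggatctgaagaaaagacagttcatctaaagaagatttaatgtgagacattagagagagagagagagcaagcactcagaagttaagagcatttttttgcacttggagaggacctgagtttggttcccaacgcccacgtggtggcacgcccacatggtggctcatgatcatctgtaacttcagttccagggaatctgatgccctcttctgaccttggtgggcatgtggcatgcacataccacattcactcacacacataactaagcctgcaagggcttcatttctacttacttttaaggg
Psmb5: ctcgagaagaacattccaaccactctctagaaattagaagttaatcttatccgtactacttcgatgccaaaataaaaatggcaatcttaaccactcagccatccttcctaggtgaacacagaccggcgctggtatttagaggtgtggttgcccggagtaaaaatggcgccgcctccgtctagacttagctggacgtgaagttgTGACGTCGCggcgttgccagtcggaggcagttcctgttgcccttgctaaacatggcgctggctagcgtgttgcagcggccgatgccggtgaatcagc
Psmb6: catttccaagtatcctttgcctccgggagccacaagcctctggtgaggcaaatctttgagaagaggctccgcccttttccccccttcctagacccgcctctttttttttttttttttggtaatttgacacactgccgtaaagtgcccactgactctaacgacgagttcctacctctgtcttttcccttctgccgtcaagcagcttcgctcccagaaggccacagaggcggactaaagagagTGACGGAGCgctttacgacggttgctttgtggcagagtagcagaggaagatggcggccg

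The 4 patterns were TGACNNNGC, CCAAT, TTCNNNGAA and an IRF-type pattern of GAAA, any 2 bases and GAAA, searched on both strands in the 41 members listed among 27025 genes with a RefSeq promoter. TGACNNNGC was in the windows of 6 members, Psmb5, Psmb6, Psmc6, Psmd9, Psmd12 and Psme4, which is 14.6% of them and 12.5% of all genes. CCAAT was in 15 members, 36.6% of them and 37.9% of all. The IRF-type pattern was in Psmb3, Psmd4, Psmd9, Psme1 and Psmg4, 12.2% of members and 3.49% of all, and TTCNNNGAA in Psmb8, Psmd2 and Psmg1, 7.32% and 8.47%. None of Psmb8, Psmb9 and Psmb10 held the IRF-type pattern in this window. GENCODE M21 starts Psmb8 at base 34197721 on the plus strand and Psmb9 at base 34187764 on the minus strand. The windows of these genes therefore lie within the annotated genes, and no sequence upstream of those starts was searched. In Psmb5 the marked pattern begins 47 bases before the RefSeq start, at -47, in Psmb6 at -9, in Psmb8 at -97 and in Psmb9 at -8. Psmb9 and the peptide transporter gene Tap1 begin head to head on opposite strands, and the Psmb9 window reaches into Tap1 as GENCODE M21 annotates it. Tap1 was at 40.0, 42.2 and 48.0 CPM in air, with 40.0, 69.8 and 41.7 CPM at 24 h and 57.5, 44.0 and 42.5 CPM at 72 h, again highest in the pair of libraries that stood apart.

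With all libraries, the mean ratios of the immuno subunits to their constitutive partners showed no shift common to all 3 pairs. The log2 ratio of Psmb8 to Psmb5 CPM was 0.23, 0.05 and 0.10 in air, with 0.10, 0.50 and 0.0042 at 24 h and 0.31, 0.22 and 0.33 at 72 h. The means were 0.13 ± 0.10, 0.20 ± 0.26 and 0.29 ± 0.06 (SD, n = 3). The mean at 72 h was 0.16 above that in air, more than the SD of either group. Still, air replicate 1 lay above replicate 2 at 72 h. The wide SD at 24 h went with the value of 0.50 in replicate 2, a library that stood apart. The log2 ratio of Psmb9 to Psmb6 was -0.99, -1.09 and -1.03 in air, with -1.18, -0.84 and -1.29 at 24 h and -0.83, -1.07 and -1.11 at 72 h. Its means of -1.04 ± 0.05, -1.10 ± 0.23 and -1.003 ± 0.15 overlapped throughout, with the highest values in the 2 libraries that carried other cell markers.

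The log2 ratio of Psmb10 to Psmb7 was -0.27, -0.39 and 0.04 in air, with -0.18, -0.16 and -0.27 at 24 h and -0.30, -0.47 and -0.58 at 72 h. The 72 h libraries lay below all 24 h libraries and overlapped those in air. Its mean was -0.21 ± 0.22 in air, -0.20 ± 0.06 at 24 h and -0.45 ± 0.14 at 72 h, and it was the median of the 3 pairs in each of the 9 libraries. The difference was -0.25 at 72 h against 24 h, -0.24 at 72 h against air and 0.01 at 24 h against air. Without the 2 libraries that stood apart, these differences were -0.30, -0.31 and -0.02, and those of Psmb8 to Psmb5 were 0.22, 0.15 and -0.07. Those of Psmb9 to Psmb6 were then 0.14, -0.05 and -0.19, against 0.10, 0.04 and -0.06 with all libraries, so the sign at 72 h against air turned. Ratios were not tested, since they combine genes chosen with earlier results known.

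**Figure D4:**
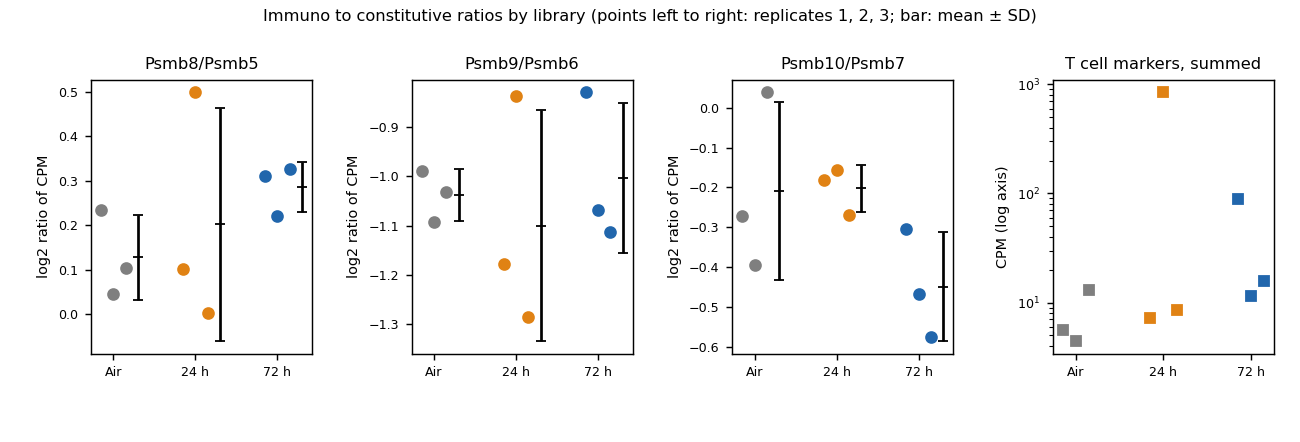
Log2 ratio of CPM (y axis) for each immuno subunit over the constitutive one it replaces, by group, with 1 point per mouse and bars for mean ± SD, n = 3. The right panel gives summed T cell marker CPM on a log axis, where replicate 2 at 24 h reaches 850 CPM and replicate 1 at 72 h 88.2 CPM, the libraries with the highest Psmb9 ratios of their groups.

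Per kilobase of transcript, immuno subunits were the minority of each pair. Psmb8 made up 37.6 ± 1.57% of Psmb8 and Psmb5 in air, 38.9 ± 4.35% at 24 h and 40.2 ± 0.945% at 72 h. Psmb9 made up 22.3 ± 0.627%, 21.7 ± 2.80% and 22.8 ± 1.89% of Psmb9 and Psmb6 in the same groups. Psmb10 made up 43.4 ± 3.80%, 43.5 ± 1.02% and 39.4 ± 2.27% of Psmb10 and Psmb7. These shares depend on the length used: with the merged length of all annotated exons, Psmb10 made up 63.4% of its pair in air and Psmb8 22.5% of its own. The order of the groups within a pair does not depend on it.

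The 19S ATPases, the ring of motors that unfolds substrates, fell together. All 6 genes, Psmc1 to Psmc6, were called lower at 72 h against 24 h, by -0.24 to -0.45 on the log2 scale, and 4 of the 6 were called without the 2 libraries that stood apart. Psmc3 was at 104, 109 and 114 CPM in air, with 115, 122 and 111 CPM at 24 h and 85.8, 89.7 and 88.6 CPM at 72 h. Psmc4 was at 73.6, 76.9 and 83.6 CPM in air, with 89.3, 87.5 and 83.6 CPM at 24 h and 60.2, 61.9 and 68.8 CPM at 72 h. Psmc5 was at 75.8, 77.4 and 81.3 CPM in air, with 81.2, 85.3 and 78.4 CPM at 24 h and 57.1, 61.7 and 67.8 CPM at 72 h. All 3 genes had 72 h libraries below the other 6. Their log2 changes against 24 h were -0.40 ± 0.06, -0.45 ± 0.07 and -0.39 ± 0.07 in the order given, with edgeR adjusted p = 0.00669, 0.00764 and 0.00976, and the 3 were also called against air. Of the 3, only Psmc3 was called against air without the 2 libraries that stood apart (edgeR, adjusted p = 0.0336, beside 0.0937 for Psmc4 and 0.0514 for Psmc5), and each was called in 1 of 9 fits with 1 library left out. Psmc4 and Psmc5 were not called against 24 h without replicate 2 at 72 h (adjusted p = 0.0517 and 0.0598).

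The 19S non-ATPase genes, which encode scaffolds, ubiquitin receptors and the lid, changed less evenly. Of 11 genes, 9 were called lower at 72 h against 24 h, and the log2 changes ran from -0.14 to -0.36. The scaffold gene Psmd1 (-0.18, edgeR adjusted p = 0.183) and the lid gene Psmd8 (-0.14, adjusted p = 0.119) were not called. Without the 2 libraries that stood apart, 3 of the 11 were called. Psmd4, a ubiquitin receptor, was at 92.9, 96.8 and 101 CPM in air, with 94.7, 97.7 and 92.9 CPM at 24 h and 74.0, 77.0 and 81.5 CPM at 72 h. It was 1 of 2 genes in this group called at 72 h against air, with a log2 change of -0.32 ± 0.06 (edgeR, adjusted p = 0.0272), the other being the lid gene Psmd13 (-0.27 ± 0.06, adjusted p = 0.0346). The Psmd13 call against air did not hold without the 2 libraries that stood apart (-0.22, edgeR adjusted p = 0.0615). Psmd13 was at 95.4, 96.0 and 102 CPM in air, with 105, 107 and 100 CPM at 24 h and 77.5, 79.9 and 85.4 CPM at 72 h.

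Psmd3, a lid subunit, was at 72.4, 79.6 and 84.8 CPM in air, with 90.9, 93.2 and 88.9 CPM at 24 h and 72.9, 70.8 and 70.4 CPM at 72 h. Psmd14, the deubiquitinase that strips ubiquitin from substrates, was at 75.8, 79.8 and 76.8 CPM in air, with 87.8, 87.7 and 84.6 CPM at 24 h and 67.2, 71.4 and 74.6 CPM at 72 h. In both, every library at 24 h lay above every other library. Against air the 24 h log2 changes were 0.21 ± 0.06 for Psmd3 (edgeR, adjusted p = 0.215) and 0.16 ± 0.05 for Psmd14 (adjusted p = 0.238), and were not called. Against 24 h the 72 h changes were -0.35 ± 0.06 (edgeR, adjusted p = 0.00975) and -0.29 ± 0.05 (adjusted p = 0.0105). Neither call at 72 h against 24 h held without replicate 2 at 72 h (adjusted p = 0.0557 and 0.0598), and those of Psmd4 and Psmd13 did not either (adjusted p = 0.0651 and 0.0517). Without replicate 1 at 24 h, Psmd14 and Psmd4 were not called (adjusted p = 0.053 and 0.0512), nor was Psmd4 without the 2 libraries that stood apart (adjusted p = 0.0528).

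Of the activators that cap the core in place of 19S, the interferon-inducible pair fell and the others did not pass the test. Psme1, the PA28 alpha subunit, was at 91.2, 91.0 and 113 CPM in air, with 107, 124 and 108 CPM at 24 h and 87.6, 79.8 and 82.6 CPM at 72 h. Psme2, the PA28 beta subunit, was at 98.5, 90.2 and 104 CPM in air, with 100, 115 and 94.6 CPM at 24 h and 71.2, 76.6 and 82.1 CPM at 72 h. Both were lower in every 72 h mouse than in every other mouse, and both were highest in replicate 2 at 24 h, the library with lymphocyte markers. The log2 changes against 24 h were -0.44 ± 0.10 for Psme1 (edgeR, adjusted p = 0.02) and -0.43 ± 0.09 for Psme2 (adjusted p = 0.0165). Psme2 without the 2 libraries that stood apart had a change of -0.27 and was not called (adjusted p = 0.0523), and Psme1 had a change of -0.38 and was (adjusted p = 0.0422). Each was called in 6 of 9 fits with 1 library left out. Psme1 was not called without replicate 1 at 24 h or without replicate 2 or 3 at 72 h, nor Psme2 without replicate 1 at 24 h or without replicate 1 or 2 at 72 h.

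Psme3, the nuclear PA28 gamma activator, was at 103, 103 and 105 CPM in air, with 117, 104 and 105 CPM at 24 h and 97.7, 95.5 and 97.8 CPM at 72 h. Its change of -0.17 ± 0.06 at 72 h against 24 h was not called (edgeR, adjusted p = 0.0699), although the 72 h mice lay below all others. Psme4, the PA200 activator known for the degradation of acetylated histones, was at 110, 109 and 99.8 CPM in air, with 103, 90.8 and 98.1 CPM at 24 h and 101, 110 and 111 CPM at 72 h. With Psme2b it was 1 of 2 members whose mean was highest at 72 h, by 0.14 ± 0.07 on the log2 scale against 24 h (edgeR, adjusted p = 0.183).

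Psme2b, an intronless near-copy of Psme2, went the other way from the family. It was at 11.8, 11.8 and 8.45 CPM in air, with 9.67, 9.24 and 9.11 CPM at 24 h and 16.6, 15.6 and 14.3 CPM at 72 h, with the 72 h mice above all others. The log2 change was 0.73 ± 0.13 at 72 h against 24 h (edgeR, adjusted p = 0.00997) and 0.54 ± 0.13 against air (adjusted p = 0.0503), and the first was not called without replicate 2 at 72 h (adjusted p = 0.0579). Of the 31-base words of its transcript, 76.5% also occur in Psme2, and its interval, chr11:48945354-48946190 on the minus strand of GRCm38, overlaps the gene 9930111J21Rik1 on the same strand. That gene was at 35.5, 32.1 and 22.8 CPM in air, with 27.7, 20.3 and 25.8 CPM at 24 h and 55.8, 58.4 and 50.5 CPM at 72 h, a log2 change of 1.16 ± 0.17 against 24 h (edgeR, adjusted p = 0.00742). The overlap with 9930111J21Rik1 covers 41 of the 837 bases of Psme2b. The annotated span of Gm12185, chr11:48904656-48992226 on the same strand, contains the whole Psme2b interval. Gm12185 averaged 2.20 CPM in air, 1.90 CPM at 24 h and 2.83 CPM at 72 h. Its log2 change was 0.58 ± 0.18 at 72 h against 24 h (edgeR, adjusted p = 0.0537). Reads cannot be told apart over the shared words or the overlaps, so the Psme2b value is uncertain. The part of each of these genes in it was not tested.

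Assembly factors followed the core at lower levels. The 20S chaperone genes Psmg1, Psmg2 and Psmg3 were called lower at 72 h against 24 h, by -0.57, -0.45 and -0.53 on the log2 scale, and the 3 were also called without the 2 libraries that stood apart. Psmg4 had a change of -0.54 ± 0.17 (edgeR, adjusted p = 0.0573), with 4.15 ± 0.375 CPM at 72 h and 6.03 ± 1.03 CPM at 24 h (SD, n = 3 each). The 4 together summed to 45.5 ± 6.05 CPM in air, 51.9 ± 4.01 CPM at 24 h and 36.4 ± 1.40 CPM at 72 h (SD, n = 3 each). The 19S chaperone genes Psmd5, Psmd9 and Psmd10 were all called lower against 24 h, by -0.29, -0.36 and -0.23. Psmd5 was at 33.3, 33.7 and 32.9 CPM in air, with 37.0, 36.4 and 34.6 CPM at 24 h and 28.1, 30.0 and 30.2 CPM at 72 h (edgeR, adjusted p = 0.00968 for 72 h against 24 h, and 0.0517 without replicate 2 at 72 h). Its groups did not overlap, with the 24 h libraries above and the 72 h libraries below those in air.

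A pair of genes in the set is not part of the macrophage proteasome. Psmb11, the catalytic subunit of the thymus proteasome, was listed at 0 to 0.0626 CPM in the 9 libraries and was not tested. Psmc3ip, which shares the prefix because its product binds Psmc3 but acts in meiotic recombination, showed the largest fall of the 48, a log2 change of -0.98 ± 0.19 at 72 h against 24 h (edgeR, adjusted p = 0.0134). It was at 3.11, 2.91 and 3.56 CPM in air, with 4.67, 5.97 and 4.45 CPM at 24 h and 2.99, 1.97 and 2.69 CPM at 72 h. Its 24 h libraries lay above all others, with a change of 0.65 ± 0.19 against air that edgeR did not call (adjusted p = 0.209) and DESeq2 did (adjusted p = 0.045). The call against 24 h did not hold without replicate 2 at 72 h (adjusted p = 0.0588).

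Among 17 further genes of proteasome assembly, inhibition and substrate delivery, 6 were called lower at 72 h against 24 h, beside 12.8% of all genes, and 2 at 72 h against air, beside 3.77%. The first count was 4 without the 2 libraries that stood apart, where Sem1 (edgeR, adjusted p = 0.0517) and the shuttle factor Rad23b (adjusted p = 0.0703) were not called. Pomp, the maturation factor of the 20S core, was at 88.9, 86.3 and 91.7 CPM in air, with 93.0, 99.6 and 89.9 CPM at 24 h and 69.3, 73.0 and 76.0 CPM at 72 h, lower by -0.37 against 24 h (edgeR, adjusted p = 0.00789) and -0.29 against air (adjusted p = 0.0331). Uchl5, a deubiquitinase of the 19S particle, was lower by -0.51 ± 0.08 against 24 h (edgeR, adjusted p = 0.00764), and the proteasome-bound thioredoxin Txnl1 by -0.40 ± 0.06 (adjusted p = 0.00795). Sem1, a small lid subunit without the Psm prefix, had a change of -0.37 ± 0.07 at 72 h against air (edgeR, adjusted p = 0.0308). The inhibitor Psmf1 had a change of -0.18 ± 0.06 against 24 h (edgeR, adjusted p = 0.0841). No gene of the list was called at 24 h against air, where the abundant shuttle factor Ubqln1 and the proteasome adaptor Ecpas had changes of -0.17 and -0.13.

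The transcription factors known to drive proteasome genes were not called. None of 11 genes of the NRF1 axis was called in any of the 3 comparisons, where at most 18.2% of all genes were called in either direction. Nfe2l1, which encodes NRF1, averaged 251.3 CPM in air, 233 CPM at 24 h and 229 CPM at 72 h, and Nfe2l2, which encodes NRF2, averaged 259, 273 and 251.4 CPM in the same groups. Vcp, the segregase that frees NRF1 from the endoplasmic reticulum, had a change of -0.21 ± 0.07 at 72 h against 24 h (edgeR, adjusted p = 0.0691). Of 6 ubiquitin supply genes, Rps27a, a ubiquitin and ribosomal protein fusion, was called lower against 24 h (-0.47 ± 0.12, edgeR adjusted p = 0.0276). The polyubiquitin gene Ubb had a change of -0.24 and was not called.

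Genes of antigen presentation and of the interferon response were also examined. Of 14 MHC class I pathway genes, 1 was called at 72 h against 24 h, beside 18.2% of all genes, namely Pdia3, a peptide-loading chaperone (-0.30 ± 0.09, edgeR adjusted p = 0.0442). Pdia3 was not called without the 2 libraries that stood apart, where Nlrc5, a transactivator of class I genes, was instead called higher at 72 h against 24 h (0.59, edgeR adjusted p = 0.028) and against air (0.65, adjusted p = 0.023). With all libraries, the class I chains H2-D1 and B2m had changes of -0.18 and -0.01 at 72 h against 24 h. Tap1 had a change of -0.07 ± 0.22 (edgeR, adjusted p = 0.865). Without the 2 libraries these changes were -0.16 for H2-D1, 0.08 for B2m and 0.10 for Tap1, and were not called. Of 22 tested interferon genes of a list of 25, only Cxcl10, a chemokine, was called, lower at 72 h against 24 h by -1.32 ± 0.23 (edgeR, adjusted p = 0.00988). It was at 0.866, 0.592 and 0.599 CPM in air, with 2.76, 1.96 and 2.00 CPM at 24 h and 1.02, 0.846 and 0.836 CPM at 72 h. Irf1, which drives the immunoproteasome genes under interferon, had a change of -0.10 ± 0.14 (edgeR, adjusted p = 0.682). Irf8, a further abundant member of the list, had a change of 0.12 ± 0.08 (edgeR, adjusted p = 0.319).

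The levels of the members differed by role in air. Per kilobase of the coding transcript, the alpha ring gene Psma1 was highest at 125 ± 1.19 CPM per kb, next to Psma6 at 123 ± 2.80, a difference within their spread. This order depends on the length used: with the merged length of all annotated exons, Psma1 was at 50.7 and Psma6 at 104 CPM per kb, and Psmb8 at 26.8 and Psmb10 at 45.4. The constitutive catalytic genes were at 76.7 to 94.5 CPM per kb, the 19S ATPases at 38.1 to 60, and the immuno genes at 27.2 for Psmb9, 55.7 for Psmb8 and 59.1 for Psmb10. On the transcript length Psmb8 and Psmb10 did not differ beyond their SDs of 3.89 and 8.63. PA28 alpha and beta stood at 88.5 and 102 CPM per kb, whereas the 20S chaperones held 8.42 to 16.2 and Psma8 2.59.

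**Figure D5:**
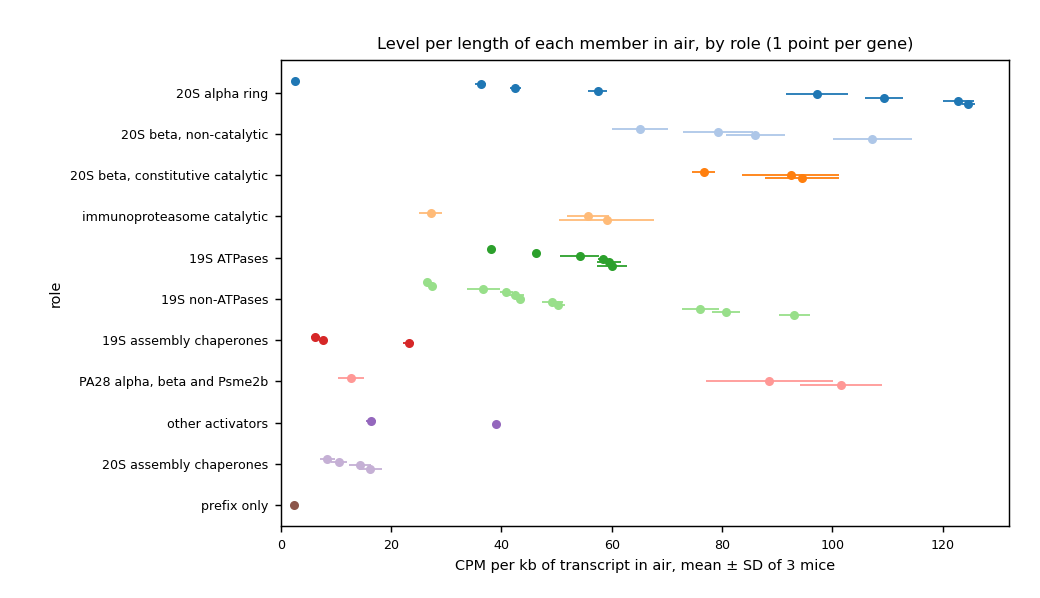
CPM per kb of transcript in air (x axis, mean ± SD of 3 mice) for each tested gene, by role (y axis). Core, PA28 alpha and beta and 19S genes spread from 26.4 to 125 CPM per kb, apart from Psma8 at 2.59, while the assembly chaperones lie at 6.29 to 23.2.

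Across the 9 libraries the members moved closely together, which describes shared libraries and group differences as well as the genes. Pearson's r of log2 CPM with the mean of the constitutive 20S genes was 0.99 for Psmc5 and 0.996 for Psmd13, and 0.95 for Psmb10. It was lower for Psmb8 at 0.84 and Psmb9 at 0.71, whose r with each other was 0.94, and for Psmd1 at 0.63. Values of this size were not particular to the immuno genes: r was 0.84 for Psmd3, 0.82 for Psmd9, 0.80 for Psme3, 0.68 for Psmg4 and 0.31 for Psma8. Psme4 had r = -0.50 and Psme2b r = -0.95. Among genes outside the set, those most like the constitutive 20S mean were Tomm7, Cenpx, Hdgf, Sumo3 and Clns1a, with r of 0.992 to 0.994 over 9 libraries. Among those most like Psmb8 were Rpl39, Rpl32, Rpl26 and Phpt1, with r of 0.984 to 0.996.

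Counts of some members rest on sequence that other genes share. Of the 49 member transcripts, 24 shared no 31-base word with transcripts of another gene, and 12 shared at least 20% of theirs. The share was 74.0% for Psmb5 and 66.8% for Psmb3, mostly with predicted genes and pseudogenes such as Gm3375, 66.2% for Psme2, 64.0% for Psma5 and 15.4% for Psmb6. It was 0 for Psmb8, Psmb9 and Psmb10. Words were compared in the orientation of the transcripts only, so sequence shared with transcripts of the opposite strand is not in these shares. On the opposite strand Psmb9 overlaps Tap1, Psmd13 overlaps Sirt3, Psmb8 overlaps Gm20496 and Psmb10 overlaps Gm16156. Further members, Psmc3, Psme1 and Psmc3ip among them, also overlap genes of the opposite strand. The sources do not say whether counting used the strand.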

How the data were processed

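Total RNA of lung macrophages was sequenced from 9 mice. Red cell lysis, RNA integrity numbers of at least 8.8 and a stranded total RNA kit are recorded, per the labels' protocols. The authors deposited estimated counts per gene, not scaled to library size, made with Trimmomatic 0.39, FastQC, Salmon and DESeq2 on GRCm38.p6, per the submitters' processing notes. The sources used here give no other versions, nor the settings. An unnamed column holding gene symbols was not used. GENCODE M21 matched 54107 of 54281 identifiers.

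Counts were rounded, filtered with filterByExpr, TMM-scaled and fitted over all 9 libraries with the robust quasi-likelihood model of edgeR 4.0.16 (R 4.3.3). Adjustment by Benjamini and Hochberg ran over 15713 genes. SE was the log2 change over the square root of F. Alternatives used DESeq2 1.42.0, limma 3.58.1 voom, other scalings and filters, and left out libraries. Code was tested on simulated data. Within each group, no library was a copy of another. Per-library values are given for the catalytic and activator genes, the 12 called members with the smallest p and the 3 with the smallest p per comparison; Psma2, Psma8, Psmd1, Psmd8, Psmd9, Psmd10, the 20S chaperones, Nlrc5 and genes marked as overlapping were added after their values were seen. The members, lists and alternatives were chosen with earlier results of these data known. A few genes of the lists are not reported here.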

Additional observations from a re-analysis of the deposited data

Results flagged for a closer look

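The change from air differed between the 2 ozone times, by the direct comparison of 72 h with 24 h, for 40 of the 48 tested genes of the set, beside 18.2% of all genes tested. The log2 difference was -0.42 for Psmb6, -0.56 for Psmb10 and 0.73 for Psme2b. It was -0.98 for Psmc3ip, which is among the 40 but shares only the prefix and is not a proteasome gene.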

How the results depend on the processing

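At 72 h against 24 h, 40 members were called, and 29 to 42 under the other scalings, filters and tools and with only the 6 libraries compared. It was 21 without the 2 libraries that carried other cell markers, 13 without these and air replicate 2, and 4 to 37 with 1 library left out. At 72 h against air, 13 were called, 6 with DESeq2 size factors, 1 with upper-quartile scaling, 4 without a filter, 6 with a minimum of 1 CPM in 3 libraries, 26 with DESeq2, 8 without the 2 libraries, 0 without these and air replicate 2, and 0 to 17 with 1 library left out. The 9 fits with 1 library left out tested 15973 to 16964 genes, against 15713 with all libraries. For these 2 comparisons, calls over all genes are given above only for the main fit and the fit without the 2 libraries. For any difference, 34 were called, 15 with upper-quartile scaling, 22 without a filter, 10 without the 2 libraries, 0 without these and air replicate 2, and 0 to 23 with 1 library left out. At 24 h against air DESeq2 called 1. With the replicate number as a block, 0, 0 and 24 members were called in the contrasts of 24 h with air, 72 h with air and 72 h with 24 h, and 0 for any difference. Deviations of same-numbered libraries correlated at -0.61 to 0.475, so the numbers were not taken to pair mice. The direction turned in uncalled changes near 0. At 24 h against air, with 1 library left out or without the 2 libraries and air replicate 2, the log2 change ran from -0.025 to 0.1133 for Psmb5, -0.0499 to 0.2219 for Psmb8, -0.1128 to 0.1768 for Psmb9, -0.0179 to 0.2027 for Psmb10 and -0.0555 to 0.1256 for Psme2. Without the 2 libraries it was -0.0148 for Psmb8, -0.0721 for Psmb9 and -0.0048 for Psme2. At 72 h against air Psme4 ran from -0.0235 to 0.0918 and was -0.0053 without a filter. The causes were not tested. The median immuno to constitutive log2 ratio at 72 h differed from that in air by -0.24, by -0.12 to -0.33 with 1 library left out and by -0.40 without the 2 libraries and air replicate 2. At 72 h against 24 h it differed by -0.25, and by -0.18 to -0.32 with 1 library left out. In each of the 9 libraries this median was the Psmb10 to Psmb7 ratio, so it describes that pair alone. With all libraries, the Psmb8 to Psmb5 ratio differed at 72 h by 0.16 from air and by 0.08 from 24 h. The Psmb9 to Psmb6 ratio differed by 0.04 and 0.10. With 3 mice a group, an exact permutation test could not go below p = 0.1.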
